A study of Mus musculus with 6 samples.

Results

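The genes described here are those of the epidermal growth factor (EGF) ligands and their ErbB receptors in prostates of TRAMP mice. Of 10 genes named, 9 had at least 1 probe set whose platform annotation gives exactly that symbol, and these 9 genes had 20 of the 45037 probe sets tested. The receptors were Egfr with 7 probe sets, Erbb3 with 2, and Erbb2 and Erbb4 with 1 each. The ligands were Tgfa with 3, Btc and Hbegf with 2 each, and Egf and Ereg with 1 each, while the signal of Areg was not analysed here. OSU-CG5 was given by oral gavage at 100 mg/kg per day to 3 intact male mice, and vehicle was given to 3 others. All 6 were crosses of C57BL/6 TRAMP with FvB, dosed for 4 weeks from 6 to 10 weeks of age and killed 2 to 4 h after the last dose. TRAMP mice, as background, carry the SV40 T antigens under a probasin promoter, which is active in prostate epithelium, so every mouse of both groups carried the oncogene. OSU-CG5 is named by its code alone in the labels. RNA of the microdissected dorsal and lateral lobes was read on 1 Affymetrix array per mouse, and 3 arrays per group limited the precision.

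As background, EGF ligands are made as membrane-anchored precursors, cut free by ADAM proteases, and bind receptor tyrosine kinases that pair on the cell surface. Egfr binds EGF, TGF-alpha and amphiregulin, Erbb4 also binds neuregulins, Erbb2 has no known ligand, and Erbb3 binds neuregulins but has little kinase activity of its own and signals through its partner. The paired receptors activate the Ras to ERK and the PI3-kinase pathways. In the prostate such signalling supports growth of the epithelium beside that of androgens.

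The tissue carried its defining transcripts. The prostate secretory gene Pbsn read 13.8 to 13.9 with OSU-CG5 and 13.3 to 13.9 in vehicle on the log2 scale, and 9 luminal markers averaged 11.7 to 12.0 in OSU-CG5 and 11.7 to 11.8 in vehicle. Vehicle replicate 2 stood apart. Its correlations with the other arrays over all probe sets were 0.966 to 0.981, against 0.987 to 0.995 for the other pairs. The mean of 6 seminal vesicle markers, which belong to a gland beside the prostate, was 3.56 to 4.55 in OSU-CG5. In vehicle it was 3.90 and 5.08 on the other two arrays and 7.91 on replicate 2. Markers of several other cell types read lower with OSU-CG5, with no overlap between groups in the list means. Differences were below 0 for 5 of 6 smooth muscle, 5 of 5 endothelial, 6 of 6 macrophage, 5 of 5 lymphocyte and 6 of 6 skeletal muscle markers. Over the brightest probe sets of all 18193 genes, 65.7% were below 0. Smooth muscle markers averaged 9.22 to 9.46 in OSU-CG5 and 9.48 to 9.72 in vehicle, and endothelial markers 4.85 to 5.04 in OSU-CG5 and 5.14 to 5.33 in vehicle. Macrophage markers averaged 6.61 to 6.90 in OSU-CG5 and 7.01 to 7.57 in vehicle, lymphocyte markers 5.16 to 5.35 in OSU-CG5 and 5.51 to 5.70 in vehicle, and skeletal muscle markers 4.89 to 5.88 in OSU-CG5 and 5.93 to 6.70 in vehicle. The list means of fibroblast, basal and neuroendocrine markers overlapped between groups. The part of these cell types in the values below was not tested. In a whole lobe, fewer cells of a type and less RNA per cell cannot be told apart.

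The comparison asked whether transcripts of this ligand and receptor family differed after OSU-CG5. No member probe set passed the adjusted threshold. In limma, with p-values adjusted by Benjamini-Hochberg over the 45037 probe sets, 0 of the 20 had an adjusted p under 0.05, and the values ran from 0.219 to 0.989. The share called was 0% over all probe sets as well. That count over all 45037 probe sets depended on the arrays. It was 400 with vehicle replicate 2 left out, 885 with vehicle replicate 3 left out and 822 under array quality weights. In each, 0 of the 20 members were called. At so small a share of all probe sets, that says little about the members. At an unadjusted p under 0.05, 2 of the 20 were lower with OSU-CG5 and 0 higher, beside 16.4% of all probe sets past that p, 6.80% lower and 9.63% higher. The 2 were the dimmer probe set of Erbb3 and a probe set of Tgfa. The groups did not overlap for 5 of the 20, all lower with OSU-CG5. Of all probe sets 23.6% had no overlap, 11.9% lower and 11.7% higher. Differences were below 0 for 17 of 20, beside 60.5% of all probe sets, and their median was -0.16 (-0.15 without vehicle replicate 2) against -0.06 for all. This median depended on the probe sets taken. With the brightest probe set of each of the 9 genes it was -0.0064, against -0.09 over the brightest probe sets of all 18193 genes. The -0.0064 is the value of Ereg, whose mean of 2.43 lies under 3.05, the tenth percentile of probe set means. The 9 differences ran from -0.47 to 0.15.

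**Figure D1:**
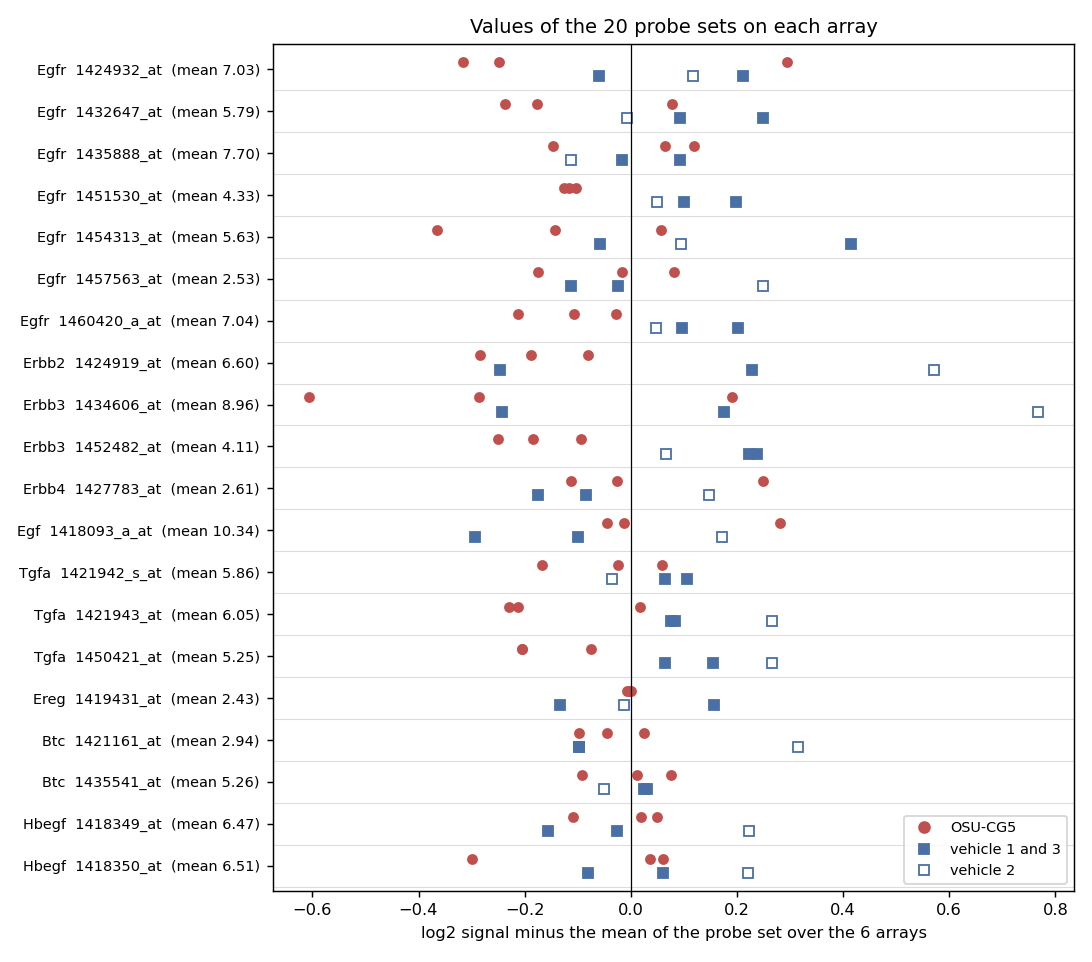
Each row is 1 probe set and each point 1 array, placed by its log2 signal minus the mean of that probe set over the 6 arrays. Red circles are OSU-CG5 and stand above the blue squares of vehicle, with vehicle replicate 2 as an open square. The groups lie apart for 5 probe sets, 2 of Egfr, 2 of Tgfa and 1 of Erbb3, and vehicle replicate 2 is the highest array for Erbb2 and for the brighter probe set of Erbb3.

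Egfr, the receptor of EGF and TGF-alpha, had differences below 0 by 6 of its 7 probe sets, and none passed the adjusted threshold. Its brightest probe set, 1435888_at, read 7.82, 7.76 and 7.55 with OSU-CG5 and 7.68, 7.59 and 7.79 in vehicle. The groups overlapped fully, and the log2 difference was 0.02 (SE 0.13; limma adjusted p = 0.938). Probe set 1460420_a_at read 6.83, 6.93 and 7.01 with OSU-CG5 and 7.24, 7.09 and 7.14 in vehicle. Every OSU-CG5 array was below every vehicle array there, by a difference of -0.23 (SE 0.11; limma adjusted p = 0.352). Probe set 1451530_at also had no overlap, at 4.22, 4.20 and 4.21 with OSU-CG5 and 4.52, 4.37 and 4.43 in vehicle. Its difference was -0.23 (SE 0.11; limma adjusted p = 0.333). Its signal was low, at a mean of 4.33, and 31.4% of all probe sets had a lower mean. Probe set 1424932_at, made from the same sequence record as 1451530_at, read 7.32, 6.71 and 6.78 with OSU-CG5 and 7.24, 7.15 and 6.97 in vehicle. There OSU-CG5 replicate 1 was the highest of the 6 arrays, and the difference was -0.18 (SE 0.18). It was -0.37 with that array left out, and -0.07 with OSU-CG5 replicate 2 left out. The pair 1432647_at and 1454313_at, which share another record, differed by -0.22 (SE 0.13) and -0.30 (SE 0.17), both with overlap. Without vehicle replicate 1 the second of these was -0.17. The remaining one, 1457563_at, read 2.35 to 2.61 with OSU-CG5 and 2.41 to 2.77 in vehicle. These lie under 3.05, the tenth percentile of probe set means, where RMA signals carry little information on a transcript.

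Erbb2, the partner receptor without a ligand, and Erbb3 both had vehicle replicate 2 as their highest array. Erbb2 read 6.52, 6.41 and 6.31 with OSU-CG5 and 6.83, 7.17 and 6.35 in vehicle. Vehicle replicate 3 lay among the OSU-CG5 arrays, and the log2 difference was -0.37 (SE 0.20; limma adjusted p = 0.386). The brighter Erbb3 probe set, 1434606_at, read 9.15, 8.35 and 8.67 with OSU-CG5 and 9.13, 9.72 and 8.71 in vehicle. OSU-CG5 replicate 1 equalled vehicle replicate 1 within 0.02 and the groups overlapped, with a difference of -0.47 (SE 0.28; limma adjusted p = 0.427). Without vehicle replicate 2, the array with the highest mean of seminal vesicle markers, the differences were -0.18 for Erbb2 and -0.20 for this Erbb3 probe set. Vehicle replicate 3, whose marker mean was next at 5.08, read lowest of the vehicle arrays for both. Leaving out vehicle replicate 3 instead gave -0.58 for Erbb2 and -0.71 for 1434606_at. For this Erbb3 probe set, the value was -0.68 with OSU-CG5 replicate 1 left out and -0.28 with OSU-CG5 replicate 2 left out. The dimmer Erbb3 probe set, 1452482_at, behaved otherwise. It read 3.86, 3.92 and 4.01 with OSU-CG5 and 4.33, 4.17 and 4.35 in vehicle, with no overlap. Its difference was -0.35 (SE 0.12), the lowest adjusted p of the 20 at 0.219 in limma, and -0.41 without vehicle replicate 2. Its signal was low, at a mean of 4.11, and 27.3% of all probe sets had a lower mean.

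Erbb4, which binds neuregulins as well as EGF-like ligands, had low signal. Its probe set read 2.49, 2.58 and 2.85 with OSU-CG5 and 2.52, 2.75 and 2.43 in vehicle, all under the tenth percentile of probe set means. The groups overlapped, with a difference of 0.07 (SE 0.14).

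**Figure D2:**
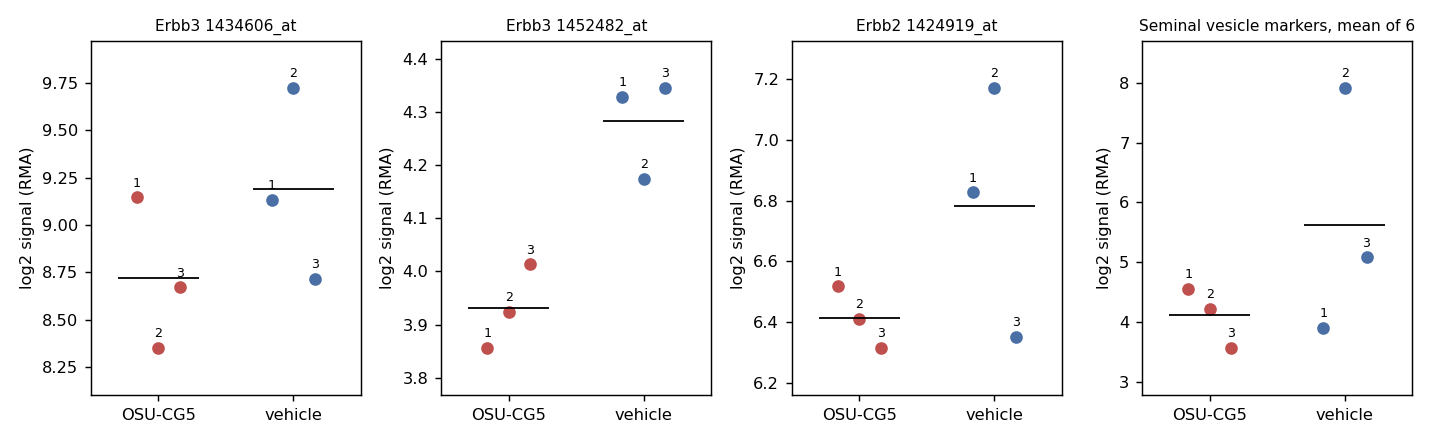
The log2 signal of both Erbb3 probe sets, of Erbb2 and of the mean of 6 seminal vesicle markers, with OSU-CG5 arrays in red at the left and vehicle arrays in blue at the right of each panel. Digits are replicate numbers, bars are group means, and the vertical axes differ between panels and do not start at 0. Vehicle replicate 2 is highest for 1434606_at of Erbb3 (9.72), for Erbb2 (7.17) and for the seminal vesicle markers (7.91), and lowest of the vehicle arrays for 1452482_at of Erbb3 (4.17).

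Among the ligands, Egf, the founding member of the family, was read by 1 probe set, with overlapping groups. It read 10.32, 10.29 and 10.62 with OSU-CG5 and 10.24, 10.51 and 10.04 in vehicle. Vehicle replicate 2 lay between OSU-CG5 replicates, and the difference was 0.15 (SE 0.16; limma adjusted p = 0.653). Leaving out vehicle replicate 2 gave 0.27, and leaving out vehicle replicate 3 gave 0.04.

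Tgfa, an Egfr ligand made by many epithelia, read lower with OSU-CG5 by all of its 3 probe sets, and none passed the adjusted threshold. All were made from 1 sequence record. Probe set 1450421_at read 5.04, 5.17 and 5.04 with OSU-CG5 and 5.40, 5.51 and 5.31 in vehicle, with no overlap. Its difference was -0.32 (SE 0.12; limma adjusted p = 0.241). Probe set 1421943_at read 5.82, 5.83 and 6.06 with OSU-CG5 and 6.12, 6.31 and 6.13 in vehicle, again with every OSU-CG5 array lower, and differed by -0.28 (SE 0.13; limma adjusted p = 0.307). Probe set 1421942_s_at, whose suffix marks probes that can also bind other transcripts, read 5.69 to 5.92 with OSU-CG5 and 5.82 to 5.97 in vehicle. The groups overlapped there, and the difference was -0.09 (SE 0.12).

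Hbegf, a heparin-binding ligand that many cells make quickly after injury or growth stimuli, had overlapping groups by both probe sets. Probe set 1418350_at read 6.57, 6.22 and 6.55 with OSU-CG5 and 6.43, 6.73 and 6.57 in vehicle, and differed by -0.13 (SE 0.14), or -0.02 without OSU-CG5 replicate 2. Probe set 1418349_at read 6.49, 6.36 and 6.52 with OSU-CG5 and 6.32, 6.70 and 6.45 in vehicle, and differed by -0.03 (SE 0.13). Vehicle replicate 2 was the highest array in both.

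Btc, betacellulin, and Ereg, epiregulin, bind both Egfr and Erbb4. The brighter Btc probe set, 1435541_at, read 5.17, 5.34 and 5.27 with OSU-CG5 and 5.29, 5.21 and 5.29 in vehicle. Its difference was -0.0042 (SE 0.11; limma adjusted p = 0.989), and its whole range over the 6 arrays was 0.17. The dimmer one, 1421161_at, read 2.84 to 2.97 with OSU-CG5 and 2.84 to 3.26 in vehicle, with vehicle replicate 2 highest. Ereg read 2.42, 2.43 and 2.43 with OSU-CG5 and 2.59, 2.42 and 2.30 in vehicle. Both of these last probe sets had means under the tenth percentile of all probe set means. In the RefSeq gene order of GRCm38.p6 the ligand genes Epgn, Ereg, Areg and Btc stand next to each other on chromosome 5. Epgn, which encodes the ligand epigen and is not one of the 10 genes, differed by -9.7e-05 (SE 0.14).

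The intervals of the differences bound what the arrays could have missed. For 19 of the 20 probe sets the 95% interval lay within a 2-fold change in either direction, and for 14 of 20 within 1.5-fold. The exception to the wider bound was 1434606_at of Erbb3, with an interval of -1.11 to 0.17. The interval was -0.82 to 0.09 for Erbb2, -0.21 to 0.51 for Egf and -0.26 to 0.31 for 1435888_at of Egfr. RMA compresses the differences of dim probe sets, so intervals at low signal bound the signal and not the transcript.

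**Figure D3:**
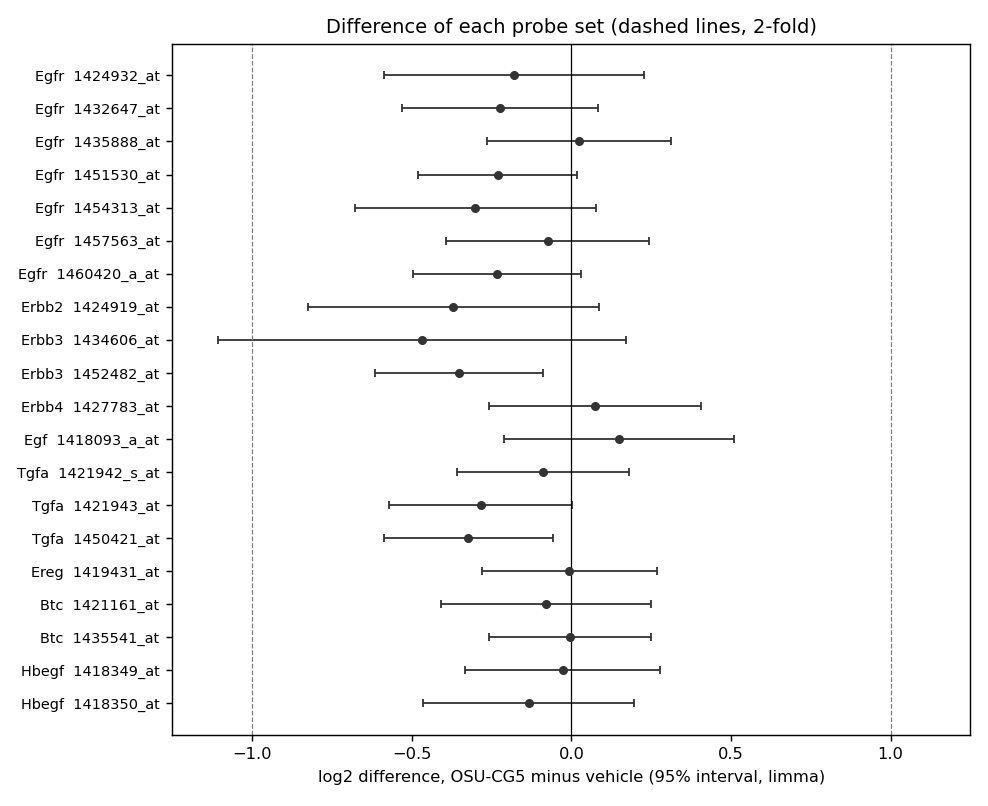
The log2 difference of each probe set, OSU-CG5 minus vehicle, with its 95% interval from limma, with dashed lines at a 2-fold change. Only the interval of 1434606_at of Erbb3 crosses a dashed line, and those of 1452482_at of Erbb3 and 1450421_at of Tgfa exclude 0 before adjustment.

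Probe sets of 1 gene did not always follow each other over the 6 arrays. Over 27 pairs of probe sets of the same gene, none passed after Benjamini-Hochberg adjustment, where the smallest adjusted exact permutation p of Pearson's r was 0.300. With 6 arrays, 1 pair alone could pass by r only at its smallest possible p, and could not pass by Spearman's rho. The lack of passing pairs therefore does not show disagreement. Both Hbegf probe sets, from 1 record, had r = 0.82 and Spearman's rho = 0.77 (n = 6; two-sided exact permutation p = 0.060 and 0.103, adjusted p = 0.442 and 0.555), and r = 0.87 without the 2 arrays farthest from the median. The Tgfa pair that had no overlap, 1421943_at and 1450421_at, had r = 0.80 and rho = 0.84 (n = 6; exact permutation p = 0.069 and 0.044, adjusted p = 0.442 and 0.525), and r = 0.82 without the 2 farthest. Over the 21 pairs of Egfr probe sets r ran from -0.58 to 0.90 with a median of 0.11, and 14 were above 0. The Erbb3 pair had r = 0.25 and rho = 0.09 (n = 6; exact permutation p = 0.650 and 0.919, adjusted p = 0.891 and 0.919), and r = -0.19 without the 2 farthest arrays. These points share arrays and include both groups.

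Between genes, none of 36 pairs of brightest probe sets passed adjustment, where the smallest adjusted exact permutation p of Pearson's r was 0.183. With 6 arrays, 1 pair alone could not pass over 36 pairs even at the smallest possible p. The lack of passing pairs therefore does not show that genes were unrelated. The highest r was that of Erbb4 and Egf, at r = 0.94 and rho = 0.83 (n = 6; two-sided exact permutation p = 0.0056 and 0.058, adjusted p = 0.183 and 0.525), and 0.75 without the 2 farthest arrays. Egfr and Erbb4 had r = -0.91 and rho = -0.89 (n = 6; exact permutation p = 0.015 and 0.033, adjusted p = 0.183 and 0.525), and r = -0.37 without the 2 farthest. Erbb4 lies under the tenth percentile of probe set means, as given above. Erbb2 and Erbb3 had r = 0.89 and rho = 0.77 (n = 6; two-sided exact permutation p = 0.015 and 0.103, adjusted p = 0.183 and 0.740). The value was 0.58 without the 2 arrays farthest from the median of Erbb2 and 0.69 without vehicle replicate 2, the highest array for both. Erbb3 had the widest range of the members at 1.37. The genes whose brightest probe sets were most like 1434606_at of Erbb3 over the 6 arrays were Tgfbr3 (r = 0.998), Ppfibp2 (r = 0.995) and Otulin (r = 0.995), out of 18192 genes. Without vehicle replicate 2 their r was 0.995, 0.989 and 0.988. With 6 arrays, 572 genes had r over 0.9, so such likeness is common here and is given as a description only.

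Among the genes searched, which left out Hbegf, 7 had a start-site sequence in RefSeq entries of GRCm38.p6. The 250 bases before the start are shown for Egfr and Tgfa, each with 2 probe sets that read lower without overlap, and for the partner receptor Erbb2. Capitals mark the GC box GGGCGG, the textbook motif of Sp1, or its reverse complement, and the CCAAT box, searched on both strands, and no marked matches overlap.
Egfr, chr11:16751953-16752202, plus strand: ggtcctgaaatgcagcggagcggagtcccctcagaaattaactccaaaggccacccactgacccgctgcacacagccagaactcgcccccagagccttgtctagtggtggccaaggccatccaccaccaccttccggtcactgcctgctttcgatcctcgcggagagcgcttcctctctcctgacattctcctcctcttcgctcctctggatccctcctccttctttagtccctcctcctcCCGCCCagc
Tgfa, chr6:86194972-86195221, plus strand: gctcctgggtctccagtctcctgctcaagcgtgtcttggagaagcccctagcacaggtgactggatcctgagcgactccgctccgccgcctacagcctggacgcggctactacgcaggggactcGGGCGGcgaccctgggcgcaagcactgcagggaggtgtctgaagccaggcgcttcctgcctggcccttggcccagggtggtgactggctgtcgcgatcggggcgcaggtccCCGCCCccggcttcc
Erbb2, chr11:98412234-98412483, plus strand: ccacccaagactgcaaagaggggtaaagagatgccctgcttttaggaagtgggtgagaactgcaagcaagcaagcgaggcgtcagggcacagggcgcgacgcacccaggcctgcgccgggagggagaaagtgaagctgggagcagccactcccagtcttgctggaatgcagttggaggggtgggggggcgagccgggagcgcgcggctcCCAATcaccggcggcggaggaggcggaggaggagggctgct

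The Egfr window held 1 GC box, the Tgfa window 2 and the Erbb2 window 0, and Erbb2 held 1 CCAAT box. Over 32851 RefSeq windows of the same length, 32.7% held a GC box and 33.8% a CCAAT box. None of these 3 windows held TATAAA, which 12.4% of all windows held. Their GC content was 60.8% for Egfr, 69.2% for Tgfa and 66.0% for Erbb2, against a median of 52.4%. The windows of Erbb4 and Btc, and both listed for Egf, held none of the 3 motifs. The window of Areg held 1 GC box and 1 TATAAA. A match is a description of letters only, and no binding was measured.

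Genes around the receptors were read from 5 lists, with the brightest probe set of each gene. No gene of these lists passed the adjusted threshold, and the share called over all 18193 genes was 0%. Among all genes 8.43% were lower and 5.40% higher with an unadjusted p under 0.05. Of the 5 other ErbB ligands, Epgn and the neuregulins Nrg1 to Nrg4, 0 had an unadjusted p under 0.05, and the median difference was -0.09. Nrg2, the one with the largest difference, read 5.87, 6.04 and 5.66 with OSU-CG5 and 6.27, 6.44 and 5.62 in vehicle. It overlapped at -0.25 (SE 0.22), while its probe set 1444491_at had no overlap at -0.39 (SE 0.12; limma adjusted p = 0.212). Nrg1 and Nrg4 differed by -0.15 (SE 0.13) and -0.09 (SE 0.13). The means of Nrg1 and Nrg3, 2.93 and 2.90, lay under the tenth percentile of probe set means.

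Of 10 sheddases and rhomboid regulators, which control the release of the ligands, 1 was lower with an unadjusted p under 0.05 and none was higher, with a median of 0.00094. The lower one was Adam15, at -0.29 (SE 0.12; limma adjusted p = 0.274). Adam17, the main protease that frees TGF-alpha, read 8.20, 8.16 and 8.09 with OSU-CG5 and 7.91, 7.95 and 8.01 in vehicle. Every OSU-CG5 array was higher, by 0.19 (SE 0.11; limma adjusted p = 0.400), while its probe set 1421859_at differed by -0.19 and 1421857_at by 0.54. The probe sets of Adam17 thus disagreed in sign. Adam19 differed by -0.15 (SE 0.11).

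Among 17 genes of receptor inhibition, degradation and its control, 3 were higher with an unadjusted p under 0.05 and none was lower, with a median of 0.04. They were the ubiquitin ligases Cbl and Cblb, which mark Egfr for breakdown, and, with the opposite activity, the deubiquitinase Usp8, which acts on receptors at the endosome. Cblb read 7.98, 8.04 and 7.84 with OSU-CG5 and 7.10, 5.82 and 7.34 in vehicle, a difference of 1.20 (SE 0.35; limma adjusted p = 0.190). Vehicle replicate 2 was the lowest array, and the other probe sets of Cblb differed by -0.23 and -0.09. Usp8 likewise had vehicle replicate 2 lowest, at 6.00, with a difference of 0.97 (SE 0.28) and of 0.13 by its other probe set. Cbl differed by 0.30 (SE 0.12) by its brightest probe set and by 0.68 (SE 0.17; limma adjusted p = 0.156) by 1455886_at, which read 8.34, 8.77 and 8.89 with OSU-CG5 and 7.83, 8.11 and 8.02 in vehicle. The remaining, dim Cbl probe set differed by -0.08.

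Of 29 adaptors and kinases downstream, 24 were measured, with a median difference of -0.03. Of these, 3 had lower and 2 had higher signal with OSU-CG5 at an unadjusted p under 0.05. The lower ones were the kinase Src at -0.53 (SE 0.13; limma adjusted p = 0.160), the PI3-kinase subunit Pik3r2 at -0.53 (SE 0.14) and the docking protein Gab2 at -0.68 (SE 0.20). The higher ones were the GTPase Nras at 0.44 (SE 0.12; limma adjusted p = 0.173) and the PI3-kinase catalytic subunit Pik3ca at 0.54 (SE 0.16). Src read 5.67, 5.85 and 5.95 with OSU-CG5 and 6.25, 6.47 and 6.33 in vehicle. Its other probe set lay on the same side at -0.35, and both others of Gab2 did too at -0.26 and -0.46. The other Nras probe sets were split, at 0.29 without overlap and at -0.24 with overlap. The lowest adjusted p of this list was at a dimmer Stat3 probe set, 1459961_a_at, higher without overlap at 1.07 (SE 0.19; limma adjusted p = 0.135). The other Stat3 probe sets differed by -0.14, -0.19 and -0.09. Other dimmer probe sets without overlap went both ways. Examples were 0.67 for Braf 1435480_at, 1.14 for Araf 1440764_at, -0.62 for Shc1 1422853_at and -0.49 for Pik3r1 1425514_at.

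Transcripts that ERK signalling induces lay on 1 side by their brightest probe sets. All 15 had differences below 0, beside 65.7% of all genes, and the median was -0.24 against -0.09 over all genes. An unadjusted p under 0.05 held for 3 of them. Dusp6, a phosphatase that shuts off ERK, read 3.90, 3.68 and 3.78 with OSU-CG5 and 4.21, 4.46 and 3.99 in vehicle, a difference of -0.43 (SE 0.15; limma adjusted p = 0.228). Fosl1 and Etv5, transcription factors of the pathway, differed by -0.33 (SE 0.14) and -0.32 (SE 0.14). All 3 had low signal, under 4.5 on every array, and the other probe set of Fosl1 differed by 0.03. Dimmer probe sets of Spred1, at 0.26 and 0.00097, and of Spry4, at 0.04, were also above 0. Of the brighter members, Spry2, an inhibitor of the pathway, overlapped between groups, at -0.40 (SE 0.19; limma adjusted p = 0.329). Egr1, Phlda1, Spred1, Ccnd1 and Fos, also among the brighter, overlapped too. Dusp6, Fosl1, Etv5, Ier3 and the dimmer Etv4, with a mean of 4.93, were lower without overlap. Ier3 and Etv4 differed by -0.21 (SE 0.12; limma adjusted p = 0.391) and -0.11 (SE 0.11; limma adjusted p = 0.623). Of all 18193 genes, 2576 were lower without overlap. Markers of muscle, vessels, macrophages and lymphocytes moved the same way, as given above, and their part in this list was not tested.

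**Figure D4:**
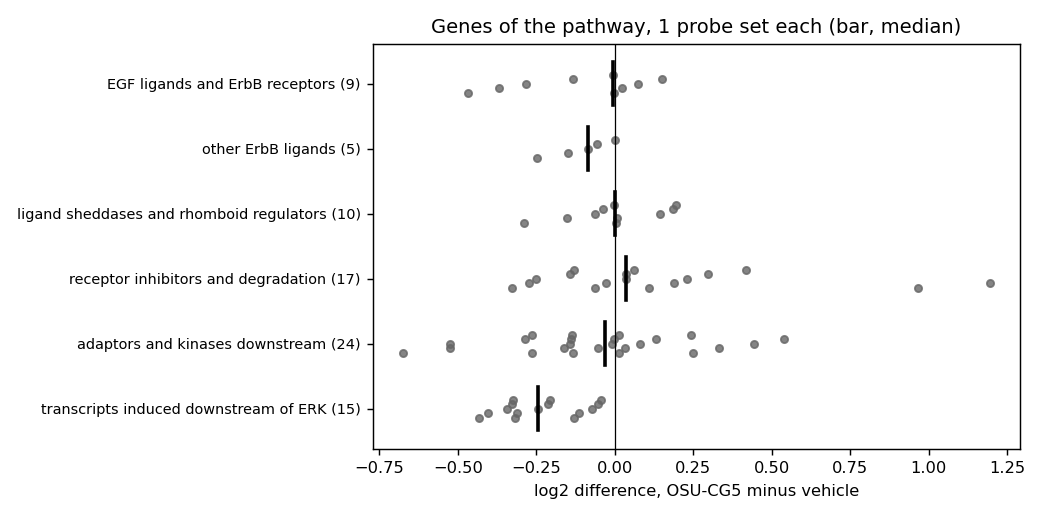
Each point is 1 gene by its brightest probe set, placed by its log2 difference, OSU-CG5 minus vehicle, with the number of genes measured in parentheses and a bar at the list's median. The 15 transcripts induced downstream of ERK all lie below 0 with a median of -0.24. The 9 ligand and receptor genes run from -0.47 to 0.15, and their median of -0.0064 is the value of Ereg, which has low signal.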

How the data were processed

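Arrays measured transcripts in dorsal and lateral prostate lobes of 6 mice, 3 per group. Per the labels' protocols, biotin-labelled cRNA was made from 2 ug of Trizol-extracted total RNA. The deposited values are log2 signals for each probe set. Per the submitters' processing notes they were made with RMA, and its software and version were not given in the sources used here. RMA includes quantile normalization, so a broad shift in 1 direction is partly removed. Groups came from the source label, which matches the titles, although the free text of some treated samples has another compound number. Replicate numbers name mice and pair none, and batches or scan dates were not analysed here.

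Of 45101 probe sets, 64 Affymetrix controls were left out. Names came from the platform annotation, with 34945 probe sets of a single symbol, 932 of several and 9160 of none. limma's lmFit and eBayes (limma 3.58.1, R 4.3.3) compared OSU-CG5 with vehicle, with p-values adjusted by Benjamini-Hochberg over the 45037 probe sets, a threshold of 0.05 and no filter. Where 1 probe set stands for a gene, it is that of highest mean. The procedure was tested on simulated data. Correlations over arrays used two-sided exact permutation tests (SciPy 1.17.1). Genes named were all member probe sets, up to 3 genes per list of smallest unadjusted p, the 3 genes most like the widest-ranging member, and markers. Epgn, Nrg3, Gab2, Pik3ca, Stat3, Braf, Araf, Shc1, Pik3r1, Spry2, Spry4, Spred1, Ier3, Etv4, Egr1, Phlda1, Ccnd1 and Fos fall outside this rule. They were chosen after their values were seen. Alternatives were minimum means of log2 6 or 4, 3 other scalings, other variance models, array weights, 1 probe set per gene, single symbols only, and leaving out each array. The members and lists were chosen with earlier results of these data known.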

Additional observations from a re-analysis of the deposited data

How the results depend on the processing

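No member probe set passed the adjusted threshold of 0.05 under any of the 16 alternatives, and the smallest adjusted p of a member was 0.095, for Erbb2 without vehicle replicate 3. The count over all 45037 probe sets, 0 with all arrays, was 822 with array quality weights. It ran from 0 to 885 when 1 array was left out, with 400 without vehicle replicate 2 and 885 without vehicle replicate 3. The median over member probe sets, -0.16, was -0.0064 with 1 probe set per gene, the value of the dim Ereg probe set. It was between -0.23 and -0.12 under the filters and scalings. The count of members at an unadjusted p under 0.05, 2 with all arrays, was 4 with quantile normalization repeated, with array quality weights and without vehicle replicate 3, 5 without moderation, 1 without vehicle replicate 2, and 0 with a minimum mean of log2 6 or 1 probe set per gene, where the 2 probe sets were not tested. The difference changed sign under at least 1 alternative for both Btc probe sets, 1435888_at and 1457563_at of Egfr, Erbb4, Ereg and 1418349_at of Hbegf, and kept it for the other 13. The median of the ERK-induced transcripts ran from -0.33 to -0.20. No paired analysis was possible because the labels give no replicate numbers that pair mice. The number of arrays limits the precision.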
